A study of Mus musculus with 2 samples.

Results

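The CD8 T cells described here carried much granzyme A transcript and few transcripts of the cell cycle. A cell was counted among them if it held at least 3 UMIs (unique molecular identifiers, 1 per captured RNA molecule) of the T cell receptor and CD3 genes, at least 2 UMIs of Cd8a and Cd8b1, no UMI of Cd4 or Foxp3, and at least 20 Gzma UMIs per 10,000. It also held fewer than 5 UMIs of Ifitm1, Ifitm2 and Ifitm3, fewer than 20 UMIs per 10,000 of the chemokines Ccl1, Ccl3, Ccl4 and Xcl1, and fewer than 3 UMIs of the cycling genes Mki67, Top2a, Cdk1 and Pclaf. These limits were met by 833 cells on day +7 and 106 cells on day +14, or 939 of the 14973 cells kept in all. They are called Gzma-high cells below. The levels of the genes in these limits chose the cells, so those levels are given as a description only.

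The cells came from a mouse model of acute graft-versus-host disease after allogeneic hematopoietic cell transplantation. Lethally irradiated BALB/c recipients received T cell-depleted bone marrow with splenic T cells, both from wild-type C57BL/6 donors. On day +7 and on day +14 the spleens of the recipients were pooled. TCRβ+ cells of the leukocyte lineage (CD45+) with the donor haplotype H2Kb and without the host haplotype H2Kd were sorted and sequenced as single cells. Neither group carried a genetic change or received a drug, and no day 0 sample or animal without disease was analysed here. The gate selects the donor haplotype and cannot separate transferred T cells from T cells that grow out of the donor marrow.

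There was 1 library for each day. Titles gave the days used here, although the protocol text of both libraries names day +7 for the sort. A difference between the days and a difference between the libraries cannot be told apart, no spread between animals could be measured, and no test was possible. The intervals given below are 95% intervals for counting error only.

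Cytotoxic T cells kill by releasing granules that hold perforin, which opens the membrane of the target cell, and granzymes, the proteases that enter through it. Granzyme A is a tryptase and granzyme B cleaves caspase substrates. In the spleen after an allogeneic transplant, donor CD8 T cells divide in response to host antigen, acquire granules and receptors for inflamed tissue, and reach gut, liver and skin.

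The labelled identity was checked against its markers. Gzmb, which the limits did not use, held a UMI in 97.6% of the Gzma-high cells on day +7 and 88.7% on day +14. The chemokine receptor Ccr2 held one in 54.7% of the cells on day +7 and in 20.8% on day +14. For comparison, Gzmb was found in 4.76% of 42 myeloid cells of the day +7 library and in 0 of the 34 of day +14, while Ccr2, which monocytes express too, was found in 4.76% and 11.8% of them. CD8 T cells below the Gzma limit also held Gzmb, at lower levels given below, so its presence does not set the Gzma-high cells apart from them. The Gzma-high cells were chosen by their Gzma level, so Gzma checks nothing here. Of the other markers, Gzmb was read in most of the cells on both days, and Ccr2 in a minority of them on day +14.

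As a measure of free RNA, Gzma held a UMI in 11.9% of the 42 myeloid cells on day +7 (median depth 5927.5 UMIs) and in 5.88% of the 34 on day +14 (5440.5 UMIs). Their highest Gzma level was 3.07 per 10,000 on day +7 and 2.01 on day +14. In CD4 T cells, which can express Gzma, it held a UMI in 37.4% of 257 cells on day +7 (median depth 8854 UMIs) and in 11.8% of 400 on day +14 (5950 UMIs). Of these, 10 cells of day +7 reached the limit, with a highest level of 155.7 per 10,000, and 0 of day +14, with a highest of 16.0. The Gzma-high cells had a median depth of 6332 UMIs and 1844 genes on day +7, and of 4594 UMIs and 1618.5 genes on day +14. In sum they held 5470495 UMIs on day +7 and 533411 on day +14, so values of day +14 are less precise. The libraries shared 20 cell barcodes, and 3 Gzma-high cells carried a barcode that the other library also held. Scrublet, a doublet caller, marked no cell in either library, and no cell was removed by its call. Leaving out the cells with its highest scores removed 7 Gzma-high cells on day +7 and 0 on day +14.

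One cell of day +14 stands apart. It held 4656 UMIs of the plasma cell genes Ighg1, Igkc, Jchain, Mzb1 and Slpi, 25.3% of its 18386 UMIs, beside 39 Gzma UMIs, while the next cell held 3. All 1611 UMIs of Ighg1 and all 237 of Jchain in the Gzma-high cells of day +14 came from it, as did 80 of the 87 UMIs of Cd74 and 243 of the 406 of Hsp90b1. Genes with most of their UMIs in this cell are named nowhere below as genes of the Gzma-high cells, and the counts of genes past 2-fold among those at 50 CPM or more are given with and without it where it moved them. The counts at a mean of 10 CPM include it. Without it they were 550 higher in place of 543 between the days, and 122 higher and 158 lower in place of 127 and 150 against the Gzma-low cells of day +14. Against the cycling cells of day +14 there were 672 lower in place of 670.

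The granzyme genes Gzma, Gzmk and Gzmb are shown by the 250 bases before their RefSeq start sites, because Gzma chose the cells and the levels of Gzmk and Gzmb followed it (RefSeq, GRCm38.p6, all on the minus strand, written 5′ to 3′). Gzma is at chr13:113093825-113100981 and Gzmk at chr13:113171608-113225908, 70626 bases apart, while Gzmb is on another chromosome at chr14:56258838-56262260. The windows are chr13:113100982-113101231 for Gzma, chr13:113180966-113181215 for Gzmk, which lies within an intron of a longer annotated transcript, and chr14:56262335-56262584 for Gzmb. Capitals mark matches to letters bound by families of T cell transcription factors.
Gzma: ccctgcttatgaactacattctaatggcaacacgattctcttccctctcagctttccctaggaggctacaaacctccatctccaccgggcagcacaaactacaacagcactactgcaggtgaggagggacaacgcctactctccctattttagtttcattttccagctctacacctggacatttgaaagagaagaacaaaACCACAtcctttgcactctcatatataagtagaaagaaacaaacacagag
Gzmk: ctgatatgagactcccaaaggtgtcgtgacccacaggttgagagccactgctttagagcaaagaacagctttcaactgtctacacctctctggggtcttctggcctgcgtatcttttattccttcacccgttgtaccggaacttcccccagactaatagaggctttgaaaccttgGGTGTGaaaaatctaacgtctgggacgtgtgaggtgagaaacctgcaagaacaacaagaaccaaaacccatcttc
Gzmb: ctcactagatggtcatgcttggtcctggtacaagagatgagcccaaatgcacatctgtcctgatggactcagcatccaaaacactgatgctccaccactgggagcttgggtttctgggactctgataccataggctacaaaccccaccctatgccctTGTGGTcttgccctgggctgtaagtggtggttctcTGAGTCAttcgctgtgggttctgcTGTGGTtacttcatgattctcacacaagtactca
Searched on both strands were TGTGGT (RUNX), GGTGTG (T-box), TGACGTCA (CRE) and TGANTCA (AP-1). The Gzma window held 1 RUNX match, on the other strand and so read as ACCACA, 50 to 45 bases before the start. The Gzmk window held 1 T-box match, 75 to 70 bases before the start. The Gzmb window held 2 RUNX matches, at 93 to 88 and 34 to 29 bases, with 1 AP-1 match between them at 58 to 52 bases. Of 32851 windows of this length, 14.0% held the RUNX letters, 16.3% the T-box letters, 1.55% the CRE letters and 6.75% the AP-1 letters. A match is a stretch of letters and no evidence of binding, and 6 of the 9 genes looked up had a window.

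The first comparison asked how many CD8 T cells met the limits on each day. They were 833 of 5629 CD8 T cells on day +7, or 14.8% (13.9 to 15.8%), and 106 of 5777 on day +14, or 1.83% (1.5 to 2.21%). The Gzma limit alone was met by 3021 CD8 T cells on day +7 (53.7%, 52.4 to 55.0%) and by 258 on day +14 (4.47%, 3.95 to 5.03%). The Ifitm and cycling limits kept a smaller share of the cells on day +7 than on day +14, and the chemokine limit a larger one. The Ifitm limit kept 2015 of the 3021 cells on day +7 and 242 of the 258 on day +14, and the chemokine limit then kept 1966 and 205. Of those within the Ifitm and chemokine limits as well, 42.4% were below the cycling limit on day +7 and 51.7% on day +14. Because the cycling limit is a fixed number of UMIs, it is met more easily by shallow cells. With cells under 4000 UMIs left out and the others thinned to 4000 first, the shares were 22.8% on day +7 and 1.5% on day +14. Of the Gzma-high cells, 801 on day +7 and 67 on day +14 held at least 4000 UMIs. Thinning thus changed which cells were counted as well as their depth.

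Among all non-cycling CD8 T cells within the Ifitm and chemokine limits, Gzma was found in most cells on day +7 and was mostly at 0 on day +14. No Gzma UMI was found in 264 of 1625 cells on day +7 (16.2%) and in 1599 of 1964 on day +14 (81.4%). A level of 100 per 10,000 or more was reached by 254 cells on day +7 (15.6%) and 22 on day +14 (1.12%). Within the Gzma-high cells, whose lower end the limit sets, Gzma ran from 20.1 to 358.6 per 10,000 with a median of 68.1 on day +7, and from 21.2 to 296.9 with a median of 57.2 on day +14. There was no gap at the limit, since 87 cells lay at 15 to 20 and 47 at 20 to 25 per 10,000 on day +7, with 1115 and 1100 CPM of Gzmb (CPM, the summed UMIs of a gene per 1000000 summed UMIs of the cells).

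**Figure D1:**
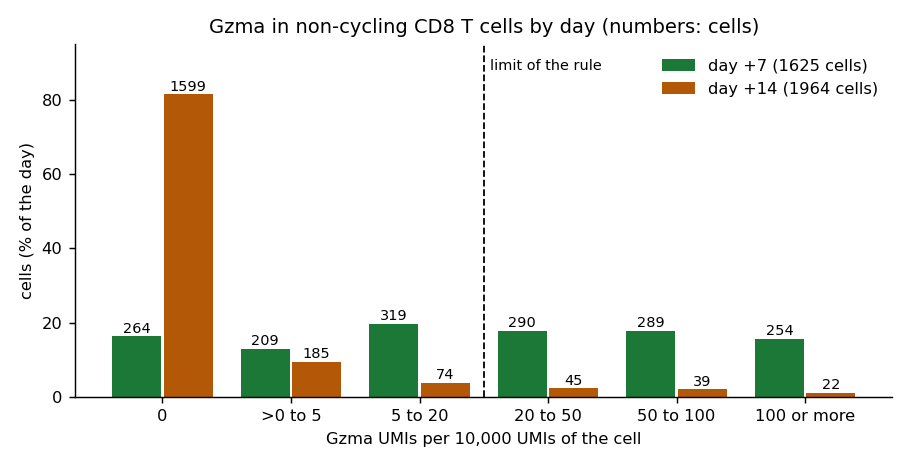
Share of the non-cycling CD8 T cells of each day (y axis, percent) by their Gzma UMIs per 10,000 UMIs (x axis, 6 classes), with the number of cells above each bar and a dashed line at the limit of 20. On day +7 every class holds between 12.9% and 19.6% of the 1625 cells, whereas on day +14 the class at 0 holds 81.4% of the 1964.

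Next, the Gzma-high cells were compared with the Gzma-low cells of the same library, which met all the other limits (792 on day +7 and 1858 on day +14). The Gzma-low cells were unlike on the 2 days, with Gzma at 524 CPM on day +7 and 54.6 CPM on day +14. No Gzma UMI was found in 264 of them on day +7 and in 1599 on day +14. Counts and ratios of the 2 days are therefore not against like cells. Ratios are log2 values of CPM with 1 CPM added. A gene was counted as past 2-fold where this value was at least 1 in size and the higher group reached 50 CPM, leaving out the genes that chose the cells. On day +7, 5 genes (0.219% of 2286) were past 2-fold higher and 1 (0.0437%) was lower. Klrg1, Gzmk, Wdr95 and Itgax were among the higher genes, and the lower one was Rgs10, a regulator of G protein signalling. With the cells thinned to 4000 UMIs before the limits, 3 genes were higher and 2 lower on day +7. On day +14, 39 genes (1.44% of 2711) were higher and 23 (0.848%) lower, or 25 and 24 without the plasma-marked cell. Klrg1 and Wdr95 were past 2-fold higher on both days and Rgs10 was lower on both days.

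Klrg1, an inhibitory receptor that binds cadherins and is found on short-lived effector cells, was at 72.4 CPM in the Gzma-high cells and 17.2 CPM in the Gzma-low cells on day +7, a log2 ratio of 2.01 (1.75 to 2.41). On day +14 it was at 124 CPM and 36.0 CPM (log2 ratio 1.75, 1.38 to 2.16). Klrg1 was thus the gene with the highest ratio of day +7, and it was higher in the Gzma-high cells on both days. Gzmk, the neighbouring tryptase gene shown above, was at 217 CPM against 85.9 CPM on day +7 and at 231 CPM against 154 CPM on day +14. Its log2 ratio was 1.32 (1.18 to 1.49) on day +7 and 0.58 (0.30 to 0.84) on day +14. The level in the Gzma-high cells was alike on both days, and the smaller ratio of day +14 went with a higher level in the Gzma-low cells. Gzmb was at 1314 CPM against 766 CPM on day +7 (0.78, 0.72 to 0.83) and at 1415 CPM against 443 CPM on day +14 (1.67, 1.56 to 1.79).

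Of the other granule genes, Prf1, which encodes perforin, was at 206 CPM in the Gzma-high cells and 159 CPM in the Gzma-low cells on day +7 and at 332 CPM and 180 CPM on day +14. Nkg7, a granule membrane protein, differed little, at 2399 CPM and 2234 CPM on day +7 and 3498 CPM and 2917 CPM on day +14. For each list of genes the median log2 ratio is given over its members at a mean of 10 CPM or more. At this level 0.16% of 6269 genes were past 2-fold higher and 0.255% lower on day +7, with a median of 0.019, and 1.83% of 6927 were higher and 2.17% lower on day +14, with a median of 0.010. The cytotoxic granule list had a median of 0.17 on day +7, with 1 of 17 genes past 2-fold higher, and of 0.23 on day +14, with 1 of 16. The gene past 2-fold was Gzmk on day +7 and Gzmb on day +14. On day +14 Prf1 came nearest among the others (0.88, 0.65 to 1.10), and Stx11, a fusion protein of granule release, was at 16.9 CPM against 32.0 CPM (-0.88, -2.06 to 0.02).

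Of the receptors for inflamed tissue, Ccr2, which binds Ccl2 and draws cells to inflamed sites, was at 163 CPM against 85.7 CPM on day +7 (0.92, 0.76 to 1.09) and at 67.5 CPM against 21.0 CPM on day +14 (1.64, 1.14 to 2.20). Cx3cr1, the fractalkine receptor of effector cells in blood vessels, was at 85.2 CPM against 46.4 CPM on day +7 (0.86, 0.66 to 1.10) and at 232 CPM against 64.5 CPM on day +14 (1.83, 1.56 to 2.13). The promoter windows of Cx3cr1 and Itgax, an integrin chain, held 1 RUNX match and 1 AP-1 match, and that of Ccr2 none of the 4 motifs. On day +14 Klf2, the transcription factor that maintains S1pr1, was at 660 CPM against 300 CPM (1.14, 0.98 to 1.30), and S1pr1 itself, the sphingosine phosphate receptor, was at 107 CPM against 50.8 CPM (1.06, 0.65 to 1.47). On day +7 neither stood apart, with log2 ratios of 0.07 for Klf2 and 0.19 for S1pr1. In the list of chemokine receptors and homing genes, 1 of 18 was past 2-fold higher and 1 lower on day +7 with a median of 0.11, and 6 of 18 were higher and 0 lower on day +14 with a median of 0.47. Ccr2 and Cx3cr1 were past 2-fold on day +14 and not on day +7, against Gzma-low cells that were unlike in Gzma on the 2 days. In the cells with no Gzma UMI, Ccr2 was at 68.0 CPM on day +7 and 19.2 CPM on day +14. Cx3cr1 was at 36.9 CPM and 60.4 CPM in them.

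The receptors shared with natural killer (NK) cells were higher in the Gzma-high cells in 8 of 8 on day +7 (median 0.54) and in 8 of 9 on day +14 (median 0.85, 4 past 2-fold higher). Klrd1, which pairs with the NKG2 receptors, was at 669 CPM against 462 CPM on day +7 and at 570 CPM against 404 CPM on day +14. Klrk1, the activating receptor NKG2D, was at 204 CPM against 139 CPM and at 216 CPM against 120 CPM. Cd160 did not follow, with log2 ratios of 0.07 on day +7 and -0.25 on day +14. Among the effector transcription factors (medians 0.04 and 0.03), Zeb2, a repressor of memory genes in effector cells, was at 21.9 CPM against 7.34 CPM on day +7 (1.46, 1.06 to 2.13) and at 95.6 CPM against 28.2 CPM on day +14 (1.73, 1.30 to 2.19). Tbx21, which encodes T-bet, had log2 ratios of 0.02 and 0.72. Ly6c2, a surface protein of activated CD8 T cells, was at 1007 CPM against 532 CPM on day +7 and at 1277 CPM against 569 CPM on day +14.

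The genes of naive and memory cells were mostly lower in the Gzma-high cells. Their median was -0.41 on day +7, with 11 of 13 lower and 4 past 2-fold lower, and -0.66 on day +14, with 8 of 11 lower, 4 past 2-fold lower and 1 past 2-fold higher. The higher one was Klf3, a transcription factor of the Krüppel-like family, at 52.5 CPM against 20.8 CPM (1.29). Tcf7, which encodes TCF-1, the factor of stem-like and memory T cells, was at 3.84 CPM in the Gzma-high cells and 36.9 CPM in the Gzma-low cells on day +7, and at 3.75 CPM and 36.2 CPM on day +14. Id3, an inhibitor of E proteins, was at 2.38 CPM against 46.5 CPM on day +7 and at 1.87 CPM against 24.6 CPM on day +14. Slamf6, a receptor of progenitor cells, was at 80.8 CPM against 160 CPM on day +7 (-0.98, -1.15 to -0.82) and at 37.5 CPM against 103 CPM on day +14 (-1.44, -2.18 to -0.83). Tcf7, Id3 and Slamf6 were thus lower in the Gzma-high than in the Gzma-low cells of both libraries. Bcl2, which blocks cell death, was at 70.0 CPM against 124 CPM on day +7 and at 111 CPM against 138 CPM on day +14.

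The list of inhibitory receptors with Tox held genes of both signs. Its median was -0.35 on day +7, with 5 of 8 genes lower in the Gzma-high cells and 1 of them past 2-fold, and -0.20 on day +14, with 7 of 12 lower, 1 past 2-fold lower and 2 past 2-fold higher. The lower gene on both days was Cd200, which encodes a ligand of an inhibitory receptor, at 6.58 CPM against 19.7 CPM on day +7 and at 11.2 CPM against 34.9 CPM on day +14. The 2 higher genes of day +14 were Cd244a, or 2B4, at 67.5 CPM against 23.2 CPM, and Entpd1, or CD39, at 65.6 CPM against 32.2 CPM. Pdcd1, which encodes PD-1, was at 139 CPM against 195 CPM on day +7 and at 240 CPM against 346 CPM on day +14. Tox, the factor of chronically stimulated T cells, was at 67.5 CPM against 110 CPM on day +7 (-0.70, -0.90 to -0.52) and at 261 CPM against 290 CPM on day +14 (-0.15, -0.41 to 0.09). Havcr2, which encodes TIM-3, went the other way, with log2 ratios of 0.16 on day +7 and 0.81 on day +14. Of the costimulatory receptors (medians -0.26 and -0.19), Tnfrsf4, or OX40, was at 9.14 CPM against 22.7 CPM on day +7 and at 16.9 CPM against 66.8 CPM on day +14. Ltb, a lymphotoxin subunit, was at 462 CPM against 615 CPM on day +7 (-0.41, -0.49 to -0.34) and at 193 CPM against 569 CPM on day +14 (-1.55, -1.85 to -1.28).

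The levels were also followed along 6 classes of Gzma. On day +7, from the cells with no Gzma UMI to those at 100 per 10,000 or more, Klrg1 went from 7.38 CPM to 119 CPM, Gzmk from 54.3 CPM to 299 CPM and Gzmb from 519 CPM to 1600 CPM. Ccl5, the chemokine RANTES stored by effector and memory CD8 T cells, went from 3697 CPM to 11693 CPM on day +7 and from 11830 CPM to 45182 CPM on day +14. Tcf7 went the other way on day +7, from 72.2 CPM to 33.2 CPM in cells with up to 5 Gzma UMIs per 10,000 and to 3.64 CPM in the highest class. On day +14 Tcf7 was at 40.3 CPM in cells with no Gzma UMI, and no UMI was found in the 2 highest classes, where the upper limits of the counting intervals were 20.1 CPM and 38.6 CPM. On day +14 the course differed between genes. Zeb2 was at 29.2 CPM, 21.1 CPM and 27.7 CPM in the 3 classes under the limit and at 74.8 CPM, 87 CPM and 167 CPM above it. Klrg1 was at 80.4 CPM in the class just under the limit, at 59.1 CPM in the 45 cells and 81.6 CPM in the 39 cells of the next classes, and at 376 CPM (264 to 521) in the 22 cells of the highest class. Tox on day +14 followed no order, with 285 CPM at no Gzma UMI, 364 CPM between 50 and 100 per 10,000 and 157 CPM in the highest class. Tox on day +7 was at 98 CPM between 20 and 50 Gzma UMIs per 10,000, at 63.1 CPM in the next class and at 36.4 CPM in the highest.

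**Figure D2:**
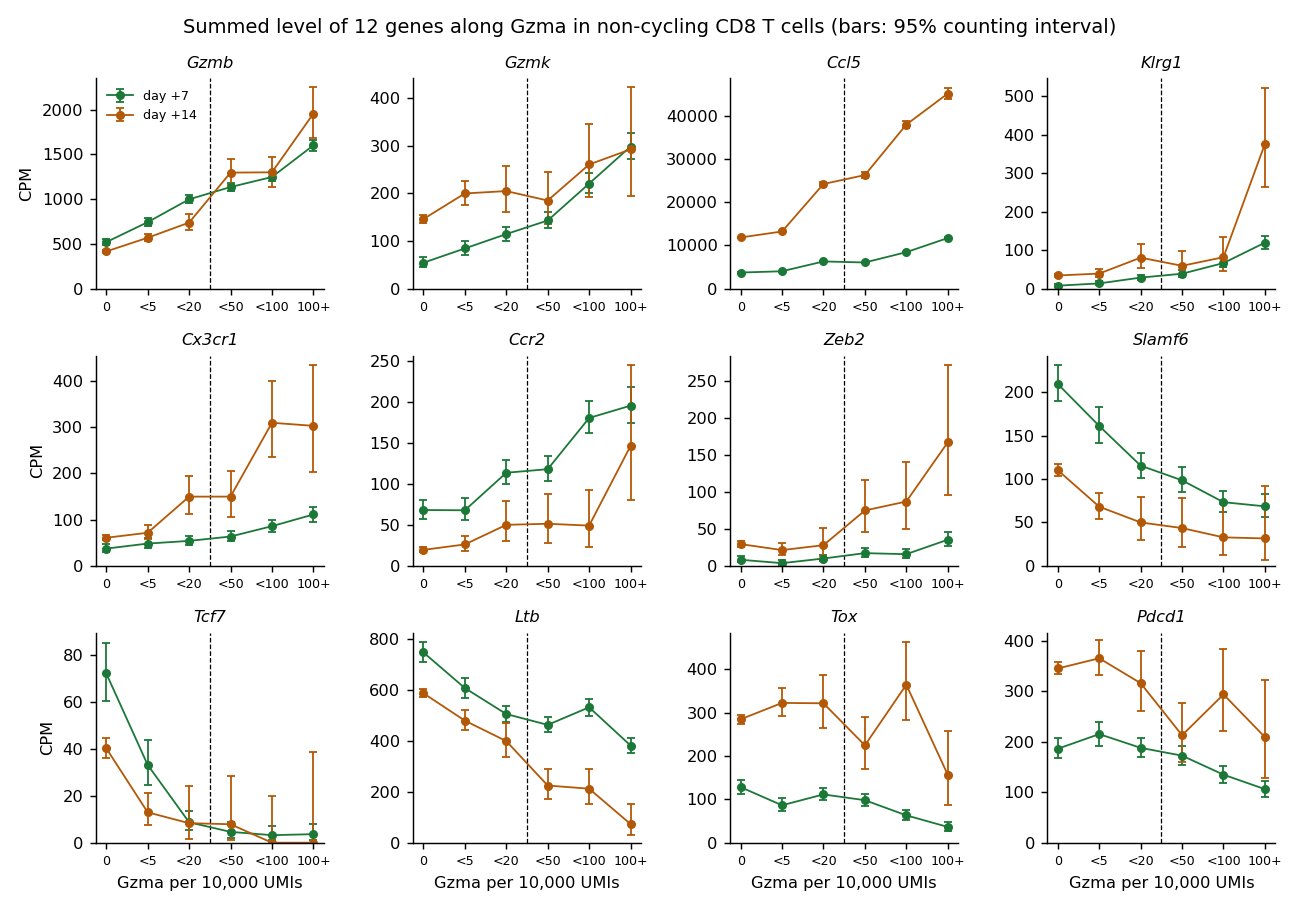
Summed level of 12 genes (y axes, CPM, each from 0) along 6 classes of Gzma per 10,000 UMIs (x axes) in the non-cycling CD8 T cells of day +7 and day +14, with 95% counting intervals and a dashed line at the limit. Klrg1 climbs from 7.38 CPM to 119 CPM on day +7 while Tcf7 goes from 72.2 CPM to 3.64 CPM, and the Ccl5 line of day +14 lies above that of day +7 in every class.

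The second comparison set the Gzma-high cells of day +14 against those of day +7. Of 2661 genes, 125 (4.7%) were past 2-fold higher on day +14 and 33 (1.24%) were lower, or 123 and 35 without the plasma-marked cell. The same contrast in the Gzma-low cells gave 78 of 2563 (3.04%) higher and 33 (1.29%) lower. Of the 125 genes, 59 were past 2-fold higher in the Gzma-low cells too and 2 had the opposite sign there, while 20 of the 33 were past 2-fold lower in both. Both contrasts use the same 2 libraries, so a difference between the libraries would appear in each. The Gzma-low cells of the 2 days were also unlike in their Gzma levels, as given above, and the part of this in their contrast was not tested. Gm42418, a transcript that overlaps ribosomal RNA sequence, was at 24615 CPM on day +7 and 8281 CPM on day +14 in the Gzma-high cells (-1.57) and at 26156 CPM and 8573 CPM in the Gzma-low cells (-1.61). Its part in the differences between the days was not tested.

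Cd7, an immunoglobulin family receptor of T and NK cells, was at 107 CPM on day +7 and 1012 CPM on day +14, a log2 ratio of 3.23 (3.07 to 3.41). The Gzma-low cells went from 103 CPM to 891 CPM, so the Gzma-high cells did not stand apart. Ccl5 was at 8558 CPM on day +7 and 33717 CPM on day +14 (1.98, 1.95 to 2.0), against 4785 CPM and 12395 CPM in the Gzma-low cells. It was found in 95% of the Gzma-high cells on day +7 and in 100% on day +14, and in 16.7% and 50% of the myeloid cells.

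Gzmb and Gzmk had like levels on both days, while 2 of the 17 granule genes were past 2-fold lower on day +14 and 0 past 2-fold higher. Gzmb was at 1314 CPM (1283 to 1344) on day +7 and 1415 CPM (1316 to 1520) on day +14, a log2 ratio of 0.11 (-0.00 to 0.22), whereas in the Gzma-low cells it went from 766 CPM to 443 CPM (-0.79). More of the Gzma-low cells were without Gzma on day +14. Within the classes of Gzma under the limit, Gzmb fell less. It went from 519 CPM to 415 CPM at no Gzma UMI, from 742 CPM to 568 CPM in the next class and from 997 CPM to 737 CPM in the class just under the limit. Gzmk had a log2 ratio of 0.09 (-0.19 to 0.36). The list of granule genes had a median of -0.02 over 17 genes, with 0 past 2-fold higher and 2 lower, where at a mean of 10 CPM 8.19% of 6634 genes were higher and 1.78% lower with a median of 0.19. The 2 were Gzmm, which encodes another granzyme, at 38 CPM and 3.75 CPM, and Serpinb6b, a protease inhibitor, at 596 CPM and 247 CPM. Both were lower in the Gzma-low cells as well, by -2.85 and -1.36. Prf1 was higher on day +14 (0.69, 0.45 to 0.92), as was Fasl, the death ligand, at 53.6 CPM and 105 CPM (0.96, 0.53 to 1.39), both short of 2-fold.

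**Figure D3:**
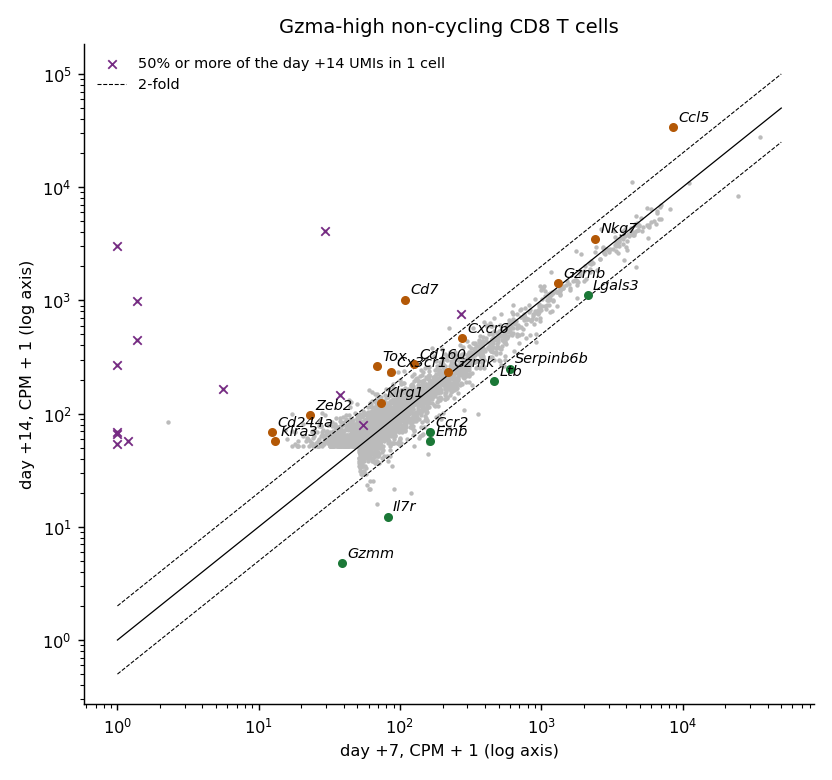
Each point is a gene at 50 CPM or more on at least 1 day in the Gzma-high cells, with its day +7 level (x axis) and day +14 level (y axis) as CPM + 1 on log axes, a solid line of equality and dashed 2-fold lines. Gzmb and Gzmk lie near the line, Cd7 and Ccl5 far above it and Il7r below it, and crosses mark genes with 50% or more of their day +14 UMIs in 1 cell.

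The receptors split between the days. Ccr2 went from 163 CPM on day +7 to 67.5 CPM on day +14 (-1.26, -1.79 to -0.79), and Cx3cr1 from 85.2 CPM to 232 CPM (1.44, 1.15 to 1.74). In the Gzma-low cells Ccr2 went from 85.7 CPM to 21.0 CPM, as in the Gzma-high cells, while Cx3cr1 went from 46.4 CPM to 64.5 CPM, a log2 ratio of 0.47. Cxcr6, a receptor of tissue-resident and activated T cells, was at 275 CPM and 465 CPM. Klf2 stayed at 662 CPM and 660 CPM, while it went from 632 CPM to 300 CPM in the Gzma-low cells. S1pr5, the receptor that terminal effector and NK cells use to leave tissue, was at 2.38 CPM (1.27 to 4.06) on day +7 and 22.5 CPM (11.6 to 39.3) on day +14, and under 1 CPM in the Gzma-low cells of both days.

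NK-type receptors were higher on day +14 in 8 of 10, with a median of 0.80 and 4 past 2-fold higher. Cd244a was at 11.3 CPM and 67.5 CPM (2.47, 1.94 to 3.19), Klra3 of the Ly49 family at 12.1 CPM and 56.2 CPM (2.13, 1.55 to 2.86) and Klre1 at 48.4 CPM and 120 CPM (1.29, 0.89 to 1.71). Klrg1 was at 72.4 CPM and 124 CPM (0.77, 0.37 to 1.15), but it held a UMI in 27.3% of the cells on day +7 and 28.3% on day +14, and in 20.5% and 23.9% after thinning to 4000 UMIs. In the Gzma-low cells the list had a median of 1.02 with 5 of 9 past 2-fold higher, where 4% of 6646 genes were higher and 1.14% lower. Zeb2 was at 21.9 CPM and 95.6 CPM (2.07, 1.62 to 2.61) and in the Gzma-low cells at 7.34 CPM and 28.2 CPM.

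Inhibitory receptors with Tox were higher on day +14 in 9 of 9 genes, with a median of 0.99 and 4 past 2-fold higher, and in 9 of 10 in the Gzma-low cells with a median of 0.91. Tox was at 67.5 CPM (60.7 to 74.7) and 261 CPM (219 to 308), a log2 ratio of 1.93 (1.66 to 2.24). It held a UMI in 18.9% of the 801 cells of day +7 and in 59.7% of the 67 cells of day +14 that were thinned to 4000 UMIs. Lag3 was at 98.3 CPM and 197 CPM, Pdcd1 at 139 CPM and 240 CPM and Entpd1 at 30 CPM and 65.6 CPM.

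Within the Gzma-high cells the share with a Tox UMI was set beside Klrg1 and Cx3cr1. On day +7, after thinning, Tox was found in 9.76% (5.68 to 15.4%) of 164 cells with a Klrg1 UMI and in 21.2% (18.1 to 24.6%) of 637 without. On day +14 it was found in 31.2% (11 to 58.7%) of 16 cells with a Klrg1 UMI and 68.6% (54.1 to 80.9%) of 51 without. The intervals lay apart on day +7 and overlapped on day +14. Beside Cx3cr1 on day +14, Tox was found in 37.5% (18.8 to 59.4%) of 24 cells with a Cx3cr1 UMI and 72.1% (56.3 to 84.7%) of 43 without, with overlapping intervals, and on day +7 the shares were 20% and 18.5%. The cells of a day share 1 library, so these are shares of cells and not replicates.

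Il7r, the receptor of the survival cytokine IL-7, was at 80.6 CPM (73.3 to 88.5) on day +7 and 11.2 CPM (4.13 to 24.5) on day +14 (-2.74, -4.30 to -1.71). It held a UMI in 25.5% of the Gzma-high cells on day +7 and 3.77% on day +14, and in none of the myeloid cells. The Gzma-low cells went from 107 CPM to 21.1 CPM (-2.28). Naive and memory genes had a median of -0.14 between the days, with 4 of 9 higher and 5 lower on day +14. In the Gzma-low cells the median was -0.38, with 10 of 13 lower. Past 2-fold lower in the Gzma-high cells were 3 of the 9, namely Il7r, Slamf6 (-1.09, -1.83 to -0.46) and Ltb (-1.25, -1.56 to -0.97). Ltb went from 615 CPM to 569 CPM in the Gzma-low cells. Emb, a chaperone of monocarboxylate transporters, showed the same split, at 163 CPM and 56.2 CPM in the Gzma-high cells and 237 CPM and 205 CPM in the Gzma-low cells.

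The other lists are given by their medians and counts. Of the Ly6, S100 and annexin genes 15 of 16 were lower on day +14, with a median of -0.38 and 0 past 2-fold, Lgals3, or galectin-3, among them at 2130 CPM and 1108 CPM. Of the nuclear genes of oxidative phosphorylation 63 of 74 were lower, with a median of -0.20. Interferon response genes had a median of 0.34 with 4 of 16 past 2-fold higher, Ifi47, an interferon-induced GTPase, among them at 87.6 CPM and 182 CPM. Cytokines and death ligands had a median of 0.31, or -0.29 with genes of all levels in the list. Of the 6 genes 2 were past 2-fold higher, Ccl5 and the death ligand Tnfsf10, and 1 was lower, Ltb. Chemokine receptors and homing genes had a median of 0.00 with 3 of 18 past 2-fold higher, Cx3cr1, S1pr5 and Cxcr4, and 1 lower, Ccr2. Cytokine receptors had a median of 0.37, or -0.05 with the cells thinned to 4000 UMIs before the limits, with 2 of 11 higher, Il21r and Il10ra, and 1 lower, Il7r. Effector transcription factors had a median of 0.26 with 2 of 14 higher, Zeb2 and Ikzf3. The BCL-2 family had a median of -0.07 with 1 of 12 higher, Bcl2l11, and 1 lower, Bbc3. Costimulatory receptors had a median of 0.29 with 1 of 10 higher, and T cell receptor signalling genes of 0.27 with 1 of 14 higher. The median of early response genes was 0.17, with 2 of 12 higher and 1 lower, but -0.54 without the plasma-marked cell and -0.18 after thinning. Transcripts of the gamma chain locus were higher, with Tcrg-C2 at 16.3 CPM and 97.5 CPM in the Gzma-high cells and at 6.80 CPM and 55.1 CPM in the Gzma-low cells, in cells sorted for TCRβ.

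**Figure D4:**
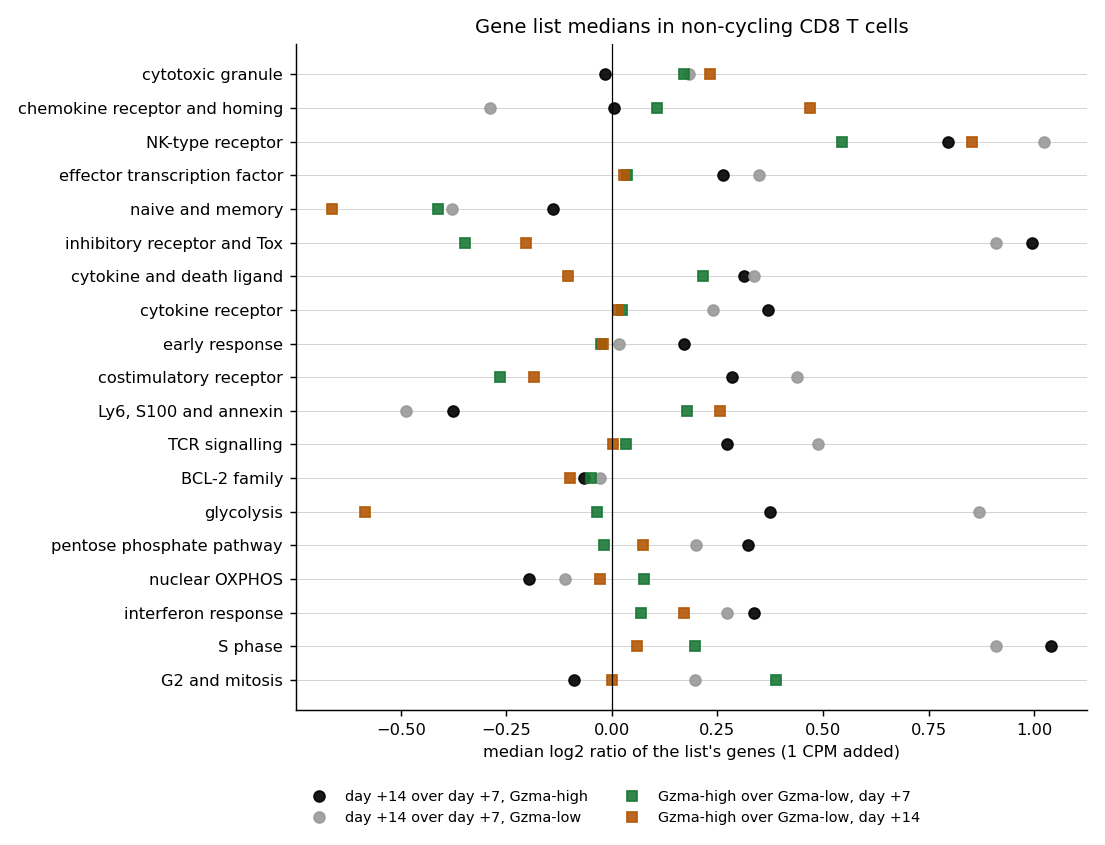
Median log2 ratio (x axis) of 19 gene lists (y axis), over their genes at a mean of 10 CPM or more, for day +14 over day +7 in the Gzma-high and the Gzma-low cells and for Gzma-high over Gzma-low on each day. The granule list lies near 0 between the days, the inhibitory list at 0.99 in Gzma-high and 0.91 in Gzma-low cells, and the glycolysis list at 0.38 and 0.87.

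S phase genes were higher on day +14, with a median of 1.04 and 9 of 17 past 2-fold higher, although the cells were chosen for few cycling UMIs. In the Gzma-low cells 15 of 16 were higher as well, with a median of 0.91 and 5 past 2-fold higher. Mcm6, a subunit of the replicative helicase, was at 65.1 CPM and 148 CPM (1.17, 0.82 to 1.54), and Mcm5, another subunit, at 27.2 CPM and 67.5 CPM. G2 and mitosis genes had a median of -0.09. The cells of day +14 were shallower, and the cycling limit counts UMIs. As an alternative, cells under 4000 UMIs were left out and the others thinned to 4000 before the limits were applied. The S phase median was then 0.50, Mcm6 stood at 1.31 and Pcna went from 0.42 to -0.27. The part of depth in the remaining difference was not tested.

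The study asked about sugar metabolism in alloreactive T cells, so glycolysis and the pentose phosphate pathway were described by gene. Glycolysis breaks down glucose to pyruvate and lactate, and the pentose phosphate pathway branches from it to make NADPH and ribose. In the Gzma-high cells 12 of 14 glycolysis genes were higher on day +14 with a median of 0.38 and 0 past 2-fold, while in the Gzma-low cells 16 of 16 were higher with a median of 0.87 and 7 past 2-fold. On day +7 the Gzma-high and Gzma-low cells had like levels, with 7 of 15 genes higher and a median of -0.03. On day +14 14 of 16 were lower in the Gzma-high cells, with a median of -0.58 and 3 past 2-fold lower.

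Tpi1, triose phosphate isomerase, was at 72.9 CPM in the Gzma-high cells of day +7 and 139 CPM on day +14 (0.92, 0.55 to 1.29), against 82.7 CPM and 323 CPM in the Gzma-low cells (1.95). Between Gzma-high and Gzma-low cells its log2 ratio was -0.18 (-0.38 to 0.02) on day +7 and -1.21 (-1.57 to -0.89) on day +14. Pgk1, which makes the first ATP of the pathway, was at 185 CPM and 223 CPM in the Gzma-high cells and 171 CPM and 390 CPM in the Gzma-low cells. Aldoa, or aldolase, was at 364 CPM and 396 CPM against 373 CPM and 675 CPM. Pkm, or pyruvate kinase, was at 233 CPM and 328 CPM against 240 CPM and 544 CPM. These enzymes were alike on day +7 and lower in the Gzma-high than in the Gzma-low cells on day +14. Slc16a3, which exports lactate, was at 4.57 CPM and 7.50 CPM against 4.30 CPM and 33.8 CPM.

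The pentose phosphate pathway showed no such split. Its 7 genes had a median of 0.32 between the days in the Gzma-high cells and 0.20 in the Gzma-low cells, and of -0.02 on day +7 and 0.07 on day +14 between the groups. Pgd, 6-phosphogluconate dehydrogenase, was at 31.1 CPM (26.6 to 36.1) and 50.6 CPM (33.4 to 73.6) in the Gzma-high cells (0.69, 0.06 to 1.30), and at 34.7 CPM and 40 CPM in the Gzma-low cells. Taldo1, a transaldolase of the non-oxidative branch, went the other way, at 342 CPM and 253 CPM (-0.43, -0.70 to -0.18). With the cells thinned first, the median of the pathway between the days was -0.00050.

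**Figure D5:**
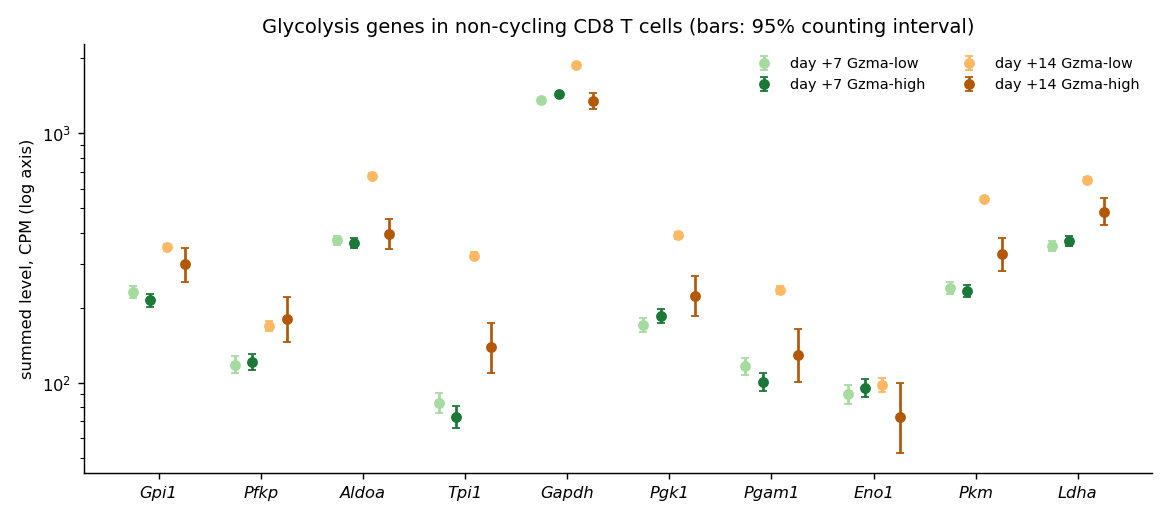
Summed level (y axis, CPM on a log scale) of 10 glycolysis genes (x axis, in the order of the pathway) in the Gzma-high and Gzma-low cells of day +7 and day +14, with 95% counting intervals. Tpi1 goes from 72.9 CPM to 139 CPM in the Gzma-high cells and from 82.7 CPM to 323 CPM in the Gzma-low cells.

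Another comparison set the Gzma-high cells against the cycling cells that met the same Gzma, Ifitm and chemokine limits, 1133 on day +7 and 99 on day +14. The cycling cells were deeper, with medians of 11979 and 9538 UMIs. On day +7, 27 of 2600 genes (1.04%) were past 2-fold higher in the non-cycling cells and 246 (9.46%) were lower, and on day +14 65 of 2976 (2.18%) and 281 (9.44%), or 57 and 276 without the plasma-marked cell. With the cells thinned to 4000 UMIs before the limits, 15 genes were higher on day +7 and 123 on day +14. S phase genes, with medians of -2.36 and -1.74, and G2 and mitosis genes, with medians of -3.58 and -3.23, were lower as the choice of cells fixed. Ccl5 was higher in the non-cycling cells, at 8558 CPM against 2374 CPM on day +7 (1.85, 1.83 to 1.87) and 33717 CPM against 8692 CPM on day +14 (1.96, 1.92 to 1.99). Bcl2 was at 70.0 CPM against 28.3 CPM and at 111 CPM against 30.1 CPM. Il7r was at 80.6 CPM against 24.7 CPM on day +7. Btg1, which restrains division, was at 328 CPM against 138 CPM on day +7 and 570 CPM against 260 CPM on day +14. Gzmb was at 1314 CPM against 1840 CPM on day +7 and 1415 CPM against 1096 CPM on day +14. Both groups were chosen for Gzma, whose level Gzmb followed, so a loss of granzymes outside the cycle could not be seen here. Klrg1 was at 72.4 CPM against 67.8 CPM on day +7 and 124 CPM against 102 CPM on day +14. Glycolysis genes had medians of -0.42 and -0.48, with 13 of 16 lower outside the cycle and 3 higher on each day, and with 1 past 2-fold lower on day +7 and 3 on day +14. At a mean of 10 CPM, 469 of 6435 genes were past 2-fold lower on day +7 and 670 of 7035 on day +14. The medians of these genes were -0.05 and -0.07.

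The spread between the Gzma-high cells of day +7 was described for genes with a mean of 0.2 UMIs or more after thinning, leaving out the genes that chose the cells, and among these Ccl5 had the highest value. In 801 cells thinned to 4000 UMIs (32 were shallower) its Fano factor, the variance over the mean of the counts, was 36.6, where the median of all 2216 genes at this mean, with those that chose the cells, was 1.06 and 49 genes exceeded 2. Per cell, Ccl5 ran from 0 to 534 per 10,000 with a median of 66.6 on day +7, and from 38.6 to 1042 with a median of 315 on day +14. Gm42418 followed at 15, Malat1 at 12.7, the interferon-induced Ifi27l2a at 12.2, Tmsb4x at 9.95, Hmgb2 at 9.92, Ly6c2 at 6.16, S100a4 at 5.92, S100a6 at 5.82 and Crip1 at 4.90. Gzmb had a median of 10.6 per 10,000 on day +7 and 9.84 on day +14, with 0 as the lowest on both days. A T cell receptor beta variable gene was read in 185 Gzma-high cells of day +7, of which 12.4% held Trbv29, and in 29 cells of day +14, too few to rank.

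Markers of other lineages were counted as well. At least 2 UMIs of a set of myeloid, erythroid and B cell markers were found in 97 of the 833 Gzma-high cells on day +7 and 9 of the 106 on day +14. They were found in 80 of the 792 Gzma-low cells on day +7 and 172 of the 1858 on day +14. The 16 myeloid markers summed to 236 CPM on day +7 and 375 CPM on day +14, or 225 CPM without the plasma-marked cell, and the 9 B and plasma cell markers to 178 CPM and 4554 CPM, or 87.4 CPM without it. The erythroid markers summed to 7.31 CPM and 41.2 CPM, the NK cell markers to 209 CPM and 172 CPM and the CD4 T cell markers to 31.4 CPM and 39.4 CPM. The gamma-delta T cell markers summed to 31.1 CPM and 157 CPM. Of the defining markers, Trdc, the constant gene of the delta chain, held 19 UMIs on day +7 and 0 on day +14. Their part in the differences between the days was not tested.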

How the data were processed

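Donor T cells sorted from pooled spleens were sequenced as 2 droplet libraries, 1 for day +7 and 1 for day +14. Per the labels and the submitters' processing notes, the authors made the deposited counts (whole UMIs per gene and barcode, not normalized) with Cell Ranger 6.1.2 on mm10. The libraries held 7355 and 8043 barcodes and 32285 features, of which 7179 and 7794 barcodes with 500 to 7500 genes and at most 15% mitochondrial UMIs were kept, with 86745047 and 83808218 UMIs. The authors removed doublets with Scrublet, while here no cell was removed as a doublet.

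From the counts, each group's UMIs were added up per gene and divided by the group's total to give CPM (UMIs per 1000000), with exact Poisson intervals. Log2 ratios had 1 CPM added and exact conditional binomial intervals of the ratio without it, and shares had Clopper-Pearson intervals, all at 95%. Intervals cover counting error only. Named genes were the 10 highest and 10 lowest ratios at 50 CPM or more, the members of 25 gene lists and, for the spread, the 10 highest Fano factors among genes with a thinned mean of at least 0.2 UMIs; the text gives a part of them, and some genes are not reported here. The members and lists were chosen with earlier results of these data known. Scripts were tested on simulated data. Alternatives changed the Gzma limit, depth, mitochondrial limit, doublets, other-lineage cells, scaling, added CPM and the low-value limit, and leaving out the plasma-marked cell was added after seeing the data. Tools were Python 3.11.15, numpy 2.4.6, scipy 1.17.1, pandas 2.3.3, scanpy 1.11.5 and matplotlib 3.10.9. Promoter windows and gene positions came from RefSeq GRCm38.p6 and from the GENCODE annotation of the same build.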

Additional observations from a re-analysis of the deposited data

Results flagged for a closer look

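Bcl2l11, Ctla2b and Ctla2a were flagged because the difference between Gzma-high and Gzma-low cells had opposite signs on the 2 days. With 1 library per day the difference between the days was not tested. Bcl2l11, which encodes the death protein BIM, had a log2 ratio of Gzma-high over Gzma-low cells of -0.48 (-0.69 to -0.30) on day +7 and of 0.59 (0.23 to 0.94) on day +14. Its level in the Gzma-high cells was 67.6 CPM on day +7 and 137 CPM on day +14, against 95 CPM and 90.8 CPM in the Gzma-low cells. Ctla2b, a cysteine protease inhibitor, had ratios of 0.75 on day +7 and -0.59 on day +14. The related Ctla2a had ratios of 0.50 on day +7 and -0.33 on day +14. Ctla2a and Ctla2b are close copies, so reads of one may be counted for the other.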

How the results depend on the processing

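No paired analysis was possible because each day is 1 library and no result comes from a test. Thinning to 4000 UMIs before the limits left out shallower cells and gave 22.8% and 1.5% of CD8 T cells on day +7 and day +14. It gave 3 genes past 2-fold higher and 2 lower in Gzma-high over Gzma-low cells on day +7. In non-cycling over cycling cells it gave 15 and 123 higher. It also took Itgax between the days to 0.00062, Pcna to -0.27 and Zeb2 in non-cycling over cycling cells of day +7 to -0.033. Between the days it turned the medians of cytokine receptors to -0.054, of early response genes to -0.18 and of the pentose phosphate pathway to -0.0005, and it gave 0.14 for granule genes. The medians of chemokine receptors and homing genes (-0.048) and of the BCL-2 family (0.080) turned as well. The early response median was also below 0, at -0.58, -0.57, -0.46 and -0.26, with a Gzma limit of 40, without cells of other lineage markers, as a mean of per-cell CPM and with genes of all levels. A Gzma limit of 10 gave shares of 18.0% and 2.46%, with 2 genes lower over Gzma-low cells on day +7 and 13 on day +14. A limit of 40 gave 10.9% and 1.19%, 194 genes higher and 52 lower between the days, 2 lower over Gzma-low cells on day +7 and 118 higher than in cycling cells on day +14. Leaving out cells with markers of other lineages, median-ratio scaling and the mean of per-cell CPM each gave 2 genes lower over Gzma-low cells on day +7. The mean of per-cell CPM also gave 15 and 102 genes higher than in cycling cells and took Cd7 over Gzma-low cells on day +14 to -0.067. Lowering the limit to 10 CPM gave 722 higher and 174 lower between the days, 14 and 20 over Gzma-low cells on day +7, 196 and 265 on day +14, and 74 and 570 over cycling cells on day +7 and 468 and 853 on day +14; with genes of all levels in the list, the cytokine median between the days was -0.29. Without the plasma-marked cell 25 genes were higher over Gzma-low cells on day +14. The cause of these changes was not tested. The 106 cells and 533411 UMIs of day +14 limit the precision of genes under about 50 CPM.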
